A study of Caenorhabditis elegans with 6 samples.

Results

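The *abu* and *pqn* genes of *Caenorhabditis elegans* encode proteins with stretches rich in glutamine and asparagine, of the kind first known from yeast prions. The genes were taken as every row of the deposited count table whose identifier carries a WormBase symbol beginning abu- or pqn-, which gave 72 of 20392 genes, 15 *abu* and 57 *pqn*. No measured value entered this choice.

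The class names describe how the genes were first found. *abu* stands for "activated in blocked unfolded protein response": the first of these genes were described as induced by endoplasmic reticulum stress in worms that cannot mount the IRE-1 and XBP-1 response. *pqn* stands for "prion-like Q/N-rich domain" and was given from sequence alone, so the class joins proteins of unrelated function. Many *abu* genes and their closest *pqn* relatives are also known as secreted proteins of the pharynx that help to build the cuticle lining it and whose transcripts rise and fall with each moult.

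RNA was compared between *mrg-1* mutant larvae (strain XA6227, genotype *mrg-1* -/-) and wild-type larvae (strain N2), 3 libraries each. MRG-1 is a chromodomain protein of chromatin. All animals were at the first larval stage (L1): eggs hatched in M9 buffer over 18 h, and the larvae were then given food for 2 h and 30 min. The mutant larvae descended from hand-picked mothers that were homozygous and lacked the balancer, so that neither mother nor larva carried a wild-type copy. The allele is not named in the labels. The wild-type mothers were washed off plates and not picked, and this difference cannot be told apart from genotype. Each library was made from many whole larvae, so fewer cells of a type and less RNA per cell cannot be told apart. The series calls the libraries biological replicas and says no more of their origin.

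Levels are given as CPM, the counts of a gene per unit of library depth, scaled with edgeR's TMM factors. Library totals ran from 19238422 to 39063186 counts. Transcripts encoded in the mitochondria took 8.42% to 12.4% of the counts in the mutant libraries, against 10.6%, 23.1% and 45.6% in wild-type libraries 1, 2 and 3. The *mrg-1* transcript itself averaged 4.29 ± 1.90 CPM in the mutant and 21.6 ± 7.57 CPM in the wild type (SD, n = 3 each; log2 fold change -2.33, edgeR adjusted p = 0.0413). It was not called without wild-type library 1 or 2 or without any 1 of the mutant libraries (edgeR adjusted p = 0.06 to 0.181). Markers of whole larvae were present in all 6 libraries: the pharyngeal myosin *myo-2* stood at 1342 to 1688 CPM in the mutant and 359 to 1623 CPM in the wild type, and the body wall myosin *unc-54* at 2972 to 3935 CPM in the mutant and 1137 to 3047 CPM in the wild type.

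The 72 genes ran from 0 counts to the 835 CPM that *pqn-59* averaged in the mutant. In all 6 libraries 11 genes had 0 counts. A further 22 averaged under 1 CPM in the wild type, 11 *abu* and 11 *pqn*. The other 39, all *pqn*, averaged 1 CPM or more there. None of the 15 *abu* genes reached 1 CPM on average in the wild type. Added together, the *abu* genes came to 7.80, 3.13 and 79.0 CPM in mutant libraries 1, 2 and 3, and to 1.06, 0.220 and 1.17 CPM in wild-type libraries 1, 2 and 3. Every mutant library thus lay above every wild-type library, and mutant library 3 stood far above the other two. The *pqn* genes together came to 4152, 3585 and 4420 CPM in the mutant and 3379, 2974 and 3200 CPM in the wild type.

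**Figure D1:**
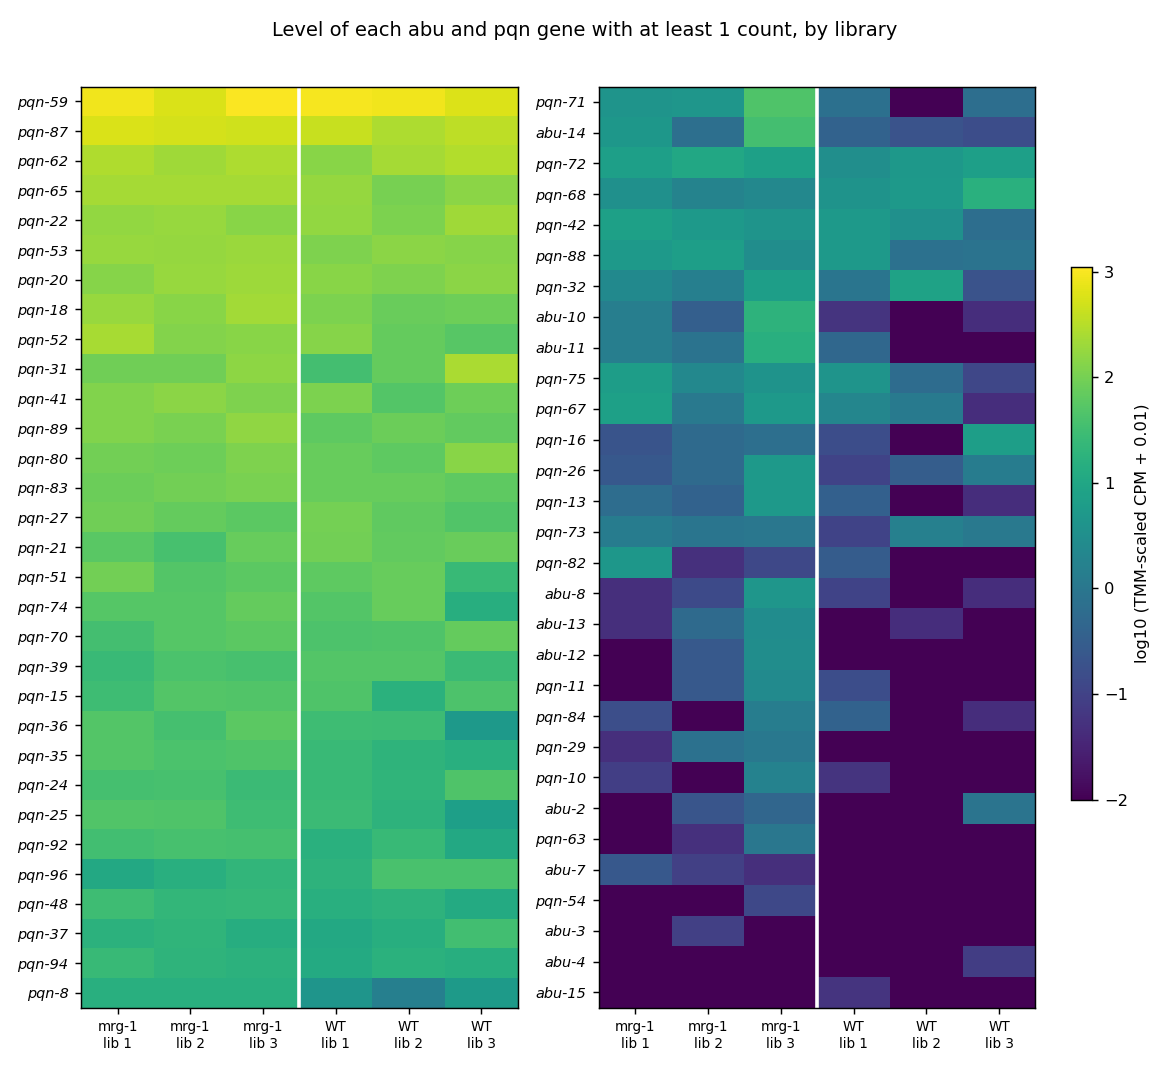
Level of the 61 *abu* and *pqn* genes with at least 1 count, as log10 of TMM-scaled CPM plus 0.01, in 3 *mrg-1* mutant libraries (left of the white line) and 3 wild-type libraries (right of it). Genes run from the highest mean in the upper left to the lowest in the lower right. All genes of the left panel are *pqn* genes detected in every library, and in the right panel *abu-8*, *abu-10*, *abu-11*, *abu-12*, *abu-13* and *abu-14* are brightest in mutant library 3.

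The expression filter of edgeR kept 45 of the 72 genes, 2 *abu* and 43 *pqn*. Of these, 2 rose in the mutant and 0 fell (edgeR quasi-likelihood test, Benjamini-Hochberg over 13460 genes). Across all tested genes 1.75% were called higher and 0.847% lower. Both genes that rose belong to the 6 of the 45 that averaged under 1 CPM in the wild type. Genes so scarce there pass the filter mostly through their mutant counts and can hardly be called lower. Among all 1719 tested genes under that limit with at least 10 counts, 76 were called higher and 0 lower. Their median log2 fold change was 1.52. At an unadjusted p under 0.05 the same test had 14 of the 45 higher and 2 lower, against 9.29% and 10.2% of all tested genes. DESeq2 called 4 of the 45 higher and 0 lower, with 5.16% and 4.72% of all tested genes. limma-voom called 0 in either direction, with 1.85% and 0.869% of all tested genes, and limma on the deposited log2 values called 3 higher and 0 lower, with 3.57% and 0.253%. The median log2 fold change of the 45 genes was 0.52, beside -0.03 over all tested genes. The genes that failed the filter are given by their counts.

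The genes that rose were *abu-14* and *pqn-71*. *abu-14*, needed in the worm for a normal pharyngeal cuticle, stood at 4.68, 0.701 and 34.7 CPM in mutant libraries 1, 2 and 3, and at 0.384, 0.183 and 0.146 CPM in the wild-type libraries. All mutant libraries lay above all wild-type libraries, and mutant library 3 was highest. The fitted log2 fold change was 5.81 (SE 1.27, 56.1-fold, edgeR adjusted p = 0.0373). *pqn-71* stood at 4.17, 4.45 and 45.3 CPM in the mutant, and at 0.721, 0 and 0.657 CPM in the wild type. It again had no overlap between the groups and its maximum in mutant library 3. Its log2 fold change was 5.29 (SE 1.25, 39.2-fold, edgeR adjusted p = 0.046). Library 3 held 87.1% of the mutant counts of *abu-14* and 84.9% of those of *pqn-71*. Without that library the log2 fold changes were 3.50 and 3.24 and neither gene was called (edgeR adjusted p = 0.303 and 0.345). Calls over all tested genes fell as well: 1.75% were called higher with all libraries, and 0.249%, 0.456% and 0.286% without mutant library 1, 2 or 3. A call lost in such a fit is therefore not particular to these genes. *abu-14* was also not called without mutant library 1 or wild-type library 2 or 3 (edgeR adjusted p = 0.0584 to 0.108). *pqn-71* was not called without any 1 of the other libraries (edgeR adjusted p = 0.0517 to 0.11). Over 15 alternatives the adjusted p of *abu-14* ran from 7.69e-07 to 0.303, with 6 calls. For *pqn-71* it ran from 0.00105 to 0.345, with 6 calls in 16 alternatives, of which DESeq2 gave no p.

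**Figure D2:**
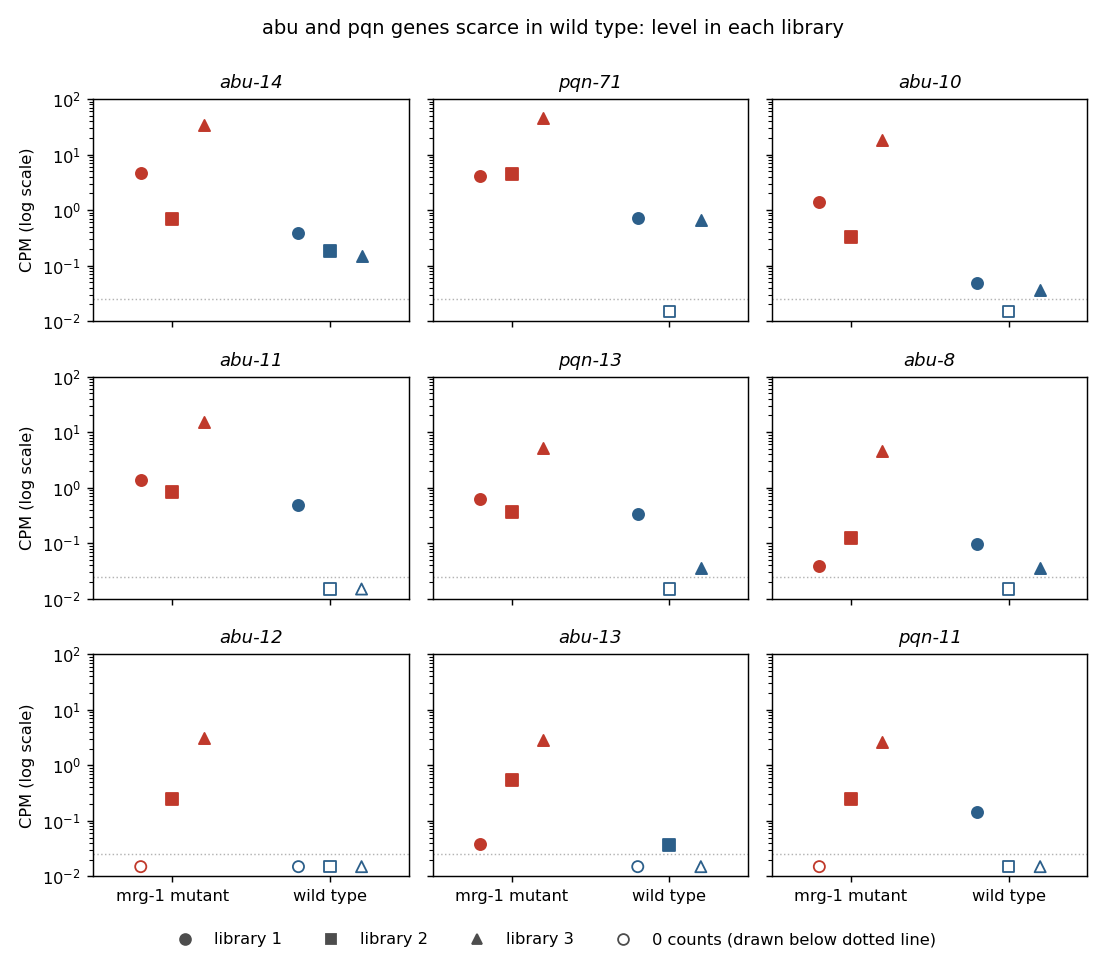
Level of 9 *abu* and *pqn* genes scarce in the wild type, in CPM on a log axis, with *mrg-1* mutant libraries in red on the left of each panel and wild-type libraries in blue on the right. Open symbols below the dotted line are libraries with 0 counts. In each of the 9 genes the highest of the 6 values is that of mutant library 3. Scarce genes that peaked elsewhere, such as *pqn-82*, *pqn-73*, *abu-2* and *abu-7*, are not drawn, so the shared peak follows from the choice of genes.

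Other *abu* genes were also highest in mutant library 3 but were not called or not tested. *abu-11*, which extends the life of worms when overexpressed, had 1.40, 0.825 and 15.3 CPM in the mutant, against 0.480, 0 and 0 CPM in the wild type. Its log2 fold change was 5.23 (SE 1.66, edgeR adjusted p = 0.109). It was 2.83 without mutant library 3 (edgeR adjusted p = 0.546). Without wild-type library 1, the only wild-type library with counts, it was called (edgeR adjusted p = 0.0347). The fitted value there, 10.27, was set against 0 counts in the wild type and is not a measured size. *abu-10* failed the filter, with 36, 8 and 481 counts in mutant libraries 1, 2 and 3 and 1, 0 and 1 in the wild-type libraries. Its summed counts per scaled depth were 259 times higher in the mutant (exact 95% binomial interval 71.3 to 2144, counting error only). With no expression filter, where 2.32% of 18694 genes were called higher and 1.6% lower, *abu-10* and *abu-11* were called as well (edgeR adjusted p = 0.00176 and 0.0246). Without mutant library 3, and again with no filter, 0 of the 60 genes that could be tested were called (edgeR), against 1.12% of 18262 genes called higher. The log2 fold change of *abu-10* was then 4.77 (edgeR adjusted p = 0.327), against 7.72 with all libraries and no filter. That fit was chosen after seeing the data.

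The remaining detected *abu* genes had few counts outside mutant library 3. *abu-8* had 1, 3 and 122 counts in the mutant and 2, 0 and 1 in the wild type, a ratio of 41.4 (interval 13.9 to 204), with overlap between the groups. *abu-13* had 1, 13 and 75 counts in the mutant and 0, 1 and 0 in the wild type, a ratio of 87.8 (15.4 to 3506), where the lowest mutant and the highest wild-type library each had 1 count. *abu-13* lies across a counted gene on the opposite strand, and the strand setting of the counting is not given. *abu-12* had 0, 6 and 81 counts in the mutant and 0 in all wild-type libraries, so it was at least 28.6-fold higher against a floor of 3 counts over the wild-type group. *abu-7* was not highest in mutant library 3, with 6, 2 and 1 counts in the mutant and 0 in the wild type, at least 2.96-fold higher.

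*abu-2* went the other way among single libraries. It had 0, 5 and 12 counts in the mutant and 0, 0 and 24 in the wild type, all of the wild-type counts coming from library 3. *abu-3*, annotated as a pseudogene, had 2 counts, both in mutant library 2. *abu-4* had 2 counts in wild-type library 3 and *abu-15* had 1 in wild-type library 1, with 0 in every mutant library. Nothing can be said of a difference in these 3 genes at this depth. *abu-1*, *abu-5*, *abu-6* and *abu-9* had 0 counts in all libraries. A floor of 3 counts per group is 0.0392 CPM in the mutant and 0.0397 CPM in the wild type. It covers counting error only and sets no limit on the level of these genes, since the treatment of reads that match several copies is not given.

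Among *pqn* genes scarce in the wild type, most also peaked in mutant library 3. *pqn-13* had 0.624, 0.371 and 5.15 CPM in the mutant, against 0.336, 0 and 0.0365 CPM in the wild type, with a log2 fold change of 4.05 (SE 1.58, edgeR adjusted p = 0.182). It was 2.03 without mutant library 3 and 6.49 without wild-type library 1. *pqn-11*, a pseudogene by annotation, had 0, 6 and 69 counts in the mutant and 3, 0 and 0 in the wild type, a ratio of 24.7 (8.12 to 122). *pqn-10* had 2, 0 and 45 counts in the mutant and 1, 0 and 0 in the wild type, a ratio of 46.4 (7.92 to 1870). Neither pair of groups was free of overlap.

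Counts were 0 in every wild-type library for 3 further genes. *pqn-29* had 1, 18 and 28 counts in the mutant (at least 15.4-fold higher), *pqn-63* had 0, 1 and 26 (at least 8.88-fold) and *pqn-54* had 0, 0 and 3, which is at the floor. *pqn-26* had 0.234, 0.536 and 5.18 CPM in the mutant and 0.0961, 0.293 and 1.31 CPM in the wild type, so that library 3 was highest within each genotype (log2 fold change 1.79, SE 1.36, edgeR adjusted p = 0.5). *pqn-26* runs across the telomerase gene *trt-1* on the opposite strand. *pqn-84* had 4, 0 and 36 counts in the mutant and 8, 0 and 1 in the wild type. *pqn-82* differed from all of these: it had 122, 1 and 3 counts in mutant libraries 1, 2 and 3 and 6, 0 and 0 in the wild type. *pqn-73* did not follow the pattern either, with 1.29, 0.907 and 0.976 CPM in the mutant and 0.0961, 1.54 and 1.10 CPM in the wild type (log2 fold change 0.21, SE 1.12).

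Of the 17 genes under 1 CPM in the wild type that had at least 10 counts in all, 14 were highest in mutant library 3 (82.4%). Over all genes chosen by the same limits, 31.8% of 4841 were highest in that library, 21.2% in mutant library 1 and 19.4% in mutant library 2. Among the 39 *pqn* genes at 1 CPM or more in the wild type, 7 were highest in mutant library 3 (17.9%), 10 in mutant library 1, 7 in mutant library 2 and 9 in wild-type library 3. Over all 16676 genes with at least 10 counts, 18.2%, 15.2%, 13.7% and 21.7% were highest in these libraries, in the same order. These shares are descriptions, since genes in the same larvae are not independent of each other.

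The *pqn* genes expressed in both genotypes were led, per length, by *pqn-59*. It is the worm relative of mammalian UBAP2L, a stress granule protein. It reached 305 ± 87 CPM per kilobase in the mutant and 294 ± 61 CPM per kilobase in the wild type (SD, n = 3 each). On the same scale *pqn-53* followed at 143 ± 6.43 in the mutant and 105 ± 11 in the wild type. *pqn-31* came next at 88.8 ± 30.2 in the mutant and 95.9 ± 93.0 in the wild type, and *pqn-87* at 104 ± 10.0 in the mutant and 68.1 ± 14.6 in the wild type. Below them *pqn-18* had 85.5 ± 19.6 in the mutant and 42.0 ± 7.65 in the wild type. *pqn-52* had 79.2 ± 29.9 in the mutant and 41.1 ± 20.6 in the wild type. *pqn-70* had 54.3 ± 13.9 in the mutant and 60.5 ± 18.7 in the wild type, and *pqn-89* had 71.5 ± 14.4 in the mutant and 38.8 ± 6.15 in the wild type. The order is that of the mean over all 6 libraries. *pqn-59* stood above the other 7 in every library, and from *pqn-53* down the ranges of neighbours in this order overlapped.

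In *pqn-59* the groups overlapped fully, with 863, 584 and 1057 CPM in the mutant and 936, 859 and 616 CPM in the wild type (log2 fold change 0.05, SE 0.29, edgeR adjusted p = 0.938). *pqn-31* varied more between libraries than between genotypes, with 88.4, 89.1 and 154 CPM in the mutant and 34.5, 72.3 and 251 CPM in the wild type. *pqn-41*, whose polyglutamine protein takes part in the programmed death of the male linker cell, had 125, 148 and 120 CPM in the mutant and 113, 50.5 and 88.0 CPM in the wild type (log2 fold change 0.64, SE 0.33, edgeR adjusted p = 0.298). Its mutant libraries lay just above all wild-type libraries.

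**Figure D3:**
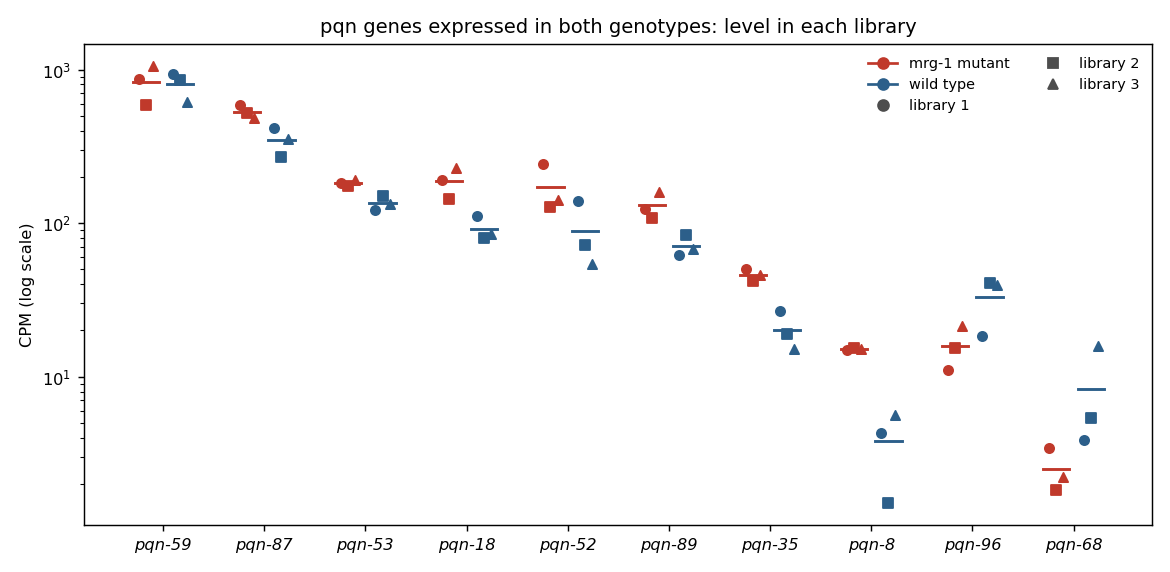
Level of 10 *pqn* genes expressed in both genotypes, in CPM on a log axis, with *mrg-1* mutant libraries in red left of wild-type libraries in blue and the mean of each group as a line. *pqn-59* overlaps between the genotypes, *pqn-18*, *pqn-35*, *pqn-89* and *pqn-8* lie higher in all mutant libraries, and *pqn-68* lies lower.

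Several well expressed *pqn* genes stood higher in every mutant library without passing the threshold. *pqn-18* had 190, 143 and 228 CPM in the mutant and 111, 80.3 and 84.5 CPM in the wild type (log2 fold change 1.02, SE 0.29, edgeR adjusted p = 0.0813). *pqn-8* was nearly constant in the mutant at 15, 15.4 and 15.2 CPM, against 4.28, 1.5 and 5.62 CPM in the wild type (log2 fold change 2.00, SE 0.58, edgeR adjusted p = 0.0872). *pqn-35* had 49.9, 42.1 and 46.2 CPM in the mutant and 26.7, 19 and 15.1 CPM in the wild type (log2 fold change 1.18, SE 0.36, edgeR adjusted p = 0.0928). In these 3 genes mutant library 3 did not stand apart from the other mutant libraries as it did in the *abu* genes. DESeq2 called these 3 together with *abu-14*. Without wild-type library 1, *pqn-18* and *pqn-35* were called in edgeR (adjusted p = 0.0434 and 0.04). *pqn-35* shares its span with *clec-136* to *clec-139* on the opposite strand and *pqn-8* with *C05B5.4*, so that reads of these neighbours may be counted in them. The same holds for *pqn-22*, *pqn-32*, *pqn-36*, *pqn-39*, *pqn-41*, *pqn-48*, *pqn-75*, *pqn-83* and *pqn-87*, and *pqn-59* overlaps *R119.3* on its own strand.

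*pqn-89* had 124, 109 and 160 CPM in the mutant and 62.0, 83.7 and 67.5 CPM in the wild type (log2 fold change 0.88, SE 0.29, edgeR adjusted p = 0.12). *pqn-87* had 585, 520 and 485 CPM in the mutant, against 416, 269 and 354 CPM in the wild type, with no overlap (log2 fold change 0.61, SE 0.26, edgeR adjusted p = 0.219). *pqn-52* had 244, 127 and 140 CPM in the mutant, against 139, 72.2 and 54.5 CPM in the wild type, with overlap (log2 fold change 0.95, SE 0.39, edgeR adjusted p = 0.199). It was called without wild-type library 1 (log2 fold change 1.43, edgeR adjusted p = 0.0428). *pqn-53* had 183, 176 and 192 CPM in the mutant, against 121, 149 and 134 CPM in the wild type, with no overlap (log2 fold change 0.45, SE 0.25, edgeR adjusted p = 0.355). Of these 4 genes *pqn-52* alone had overlapping groups. The remaining 20 tested genes, all *pqn*, had log2 fold changes from 0.0018 (*pqn-22*) to 1.22 (*pqn-25*). None passed the threshold (lowest edgeR adjusted p = 0.16), and in 8 of the 20 every mutant library was above every wild-type library. Over all tested genes 14.4% were higher and 12% lower without overlap. The genes with the 8 lowest fold changes are named below and left out of the 20, so that all 20 are positive follows from the choice.

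Of the 39 *pqn* genes at 1 CPM or more in the wild type, 15 were higher in all mutant libraries than in any wild-type library and 1 was lower in all. Over all tested genes, with no limit on the wild-type level, these shares were 14.4% and 12%. The 39 genes had a median log2 fold change of 0.43, with 31 positive and 8 negative values, while 48.7% of all tested genes had a positive value. Those tested genes are an unlike set, since they include 1719 under 1 CPM in the wild type. Of these, 1453 had a positive and 266 a negative value, and 636 were higher and 13 lower without overlap. In edgeR 0 of the 39 passed the test, with 10 higher and 2 lower at an unadjusted p under 0.05.

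The lowest fold changes belonged to *pqn-16*, *pqn-68* and *pqn-96*. *pqn-68* had 3.43, 1.81 and 2.22 CPM in the mutant and 3.84, 5.35 and 15.8 CPM in the wild type, lower in every mutant library (log2 fold change -1.74, SE 0.73, edgeR adjusted p = 0.215). Without wild-type library 3 it was -0.87. *pqn-96* had 11, 15.3 and 21.4 CPM in the mutant and 18.4, 40.6 and 39.8 CPM in the wild type (log2 fold change -1.05, SE 0.43, edgeR adjusted p = 0.205). *pqn-16* rested on wild-type library 3 alone, with 0.195, 0.536 and 0.676 CPM in the mutant and 0.144, 0 and 6.75 CPM in the wild type. Its log2 fold change was -2.28 (SE 1.63, edgeR adjusted p = 0.472), and 2.71 without wild-type library 3. For *pqn-21*, *pqn-39*, *pqn-37*, *pqn-70* and *pqn-31* the log2 fold changes were -0.51, -0.27, -0.23, -0.16 and -0.11, all with overlap between the groups.

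At the other end, 2 *pqn* genes of a few CPM had log2 fold changes above 1 with SEs also above 1. *pqn-67* had 7.57, 1.07 and 5.30 CPM in the mutant and 2.07, 1.17 and 0.0365 CPM in the wild type (log2 fold change 2.09, SE 1.17, edgeR adjusted p = 0.346). *pqn-75*, expressed in the pharyngeal gland cells, had 6.47, 2.31 and 3.87 CPM in the mutant and 4.08, 0.587 and 0.110 CPM in the wild type (log2 fold change 1.41, SE 1.11, edgeR adjusted p = 0.519). In both genes the groups overlapped, and wild-type library 1 was the highest of the wild type. Without that library the log2 fold changes were 2.93 for *pqn-67* and 3.58 for *pqn-75*.

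**Figure D4:**
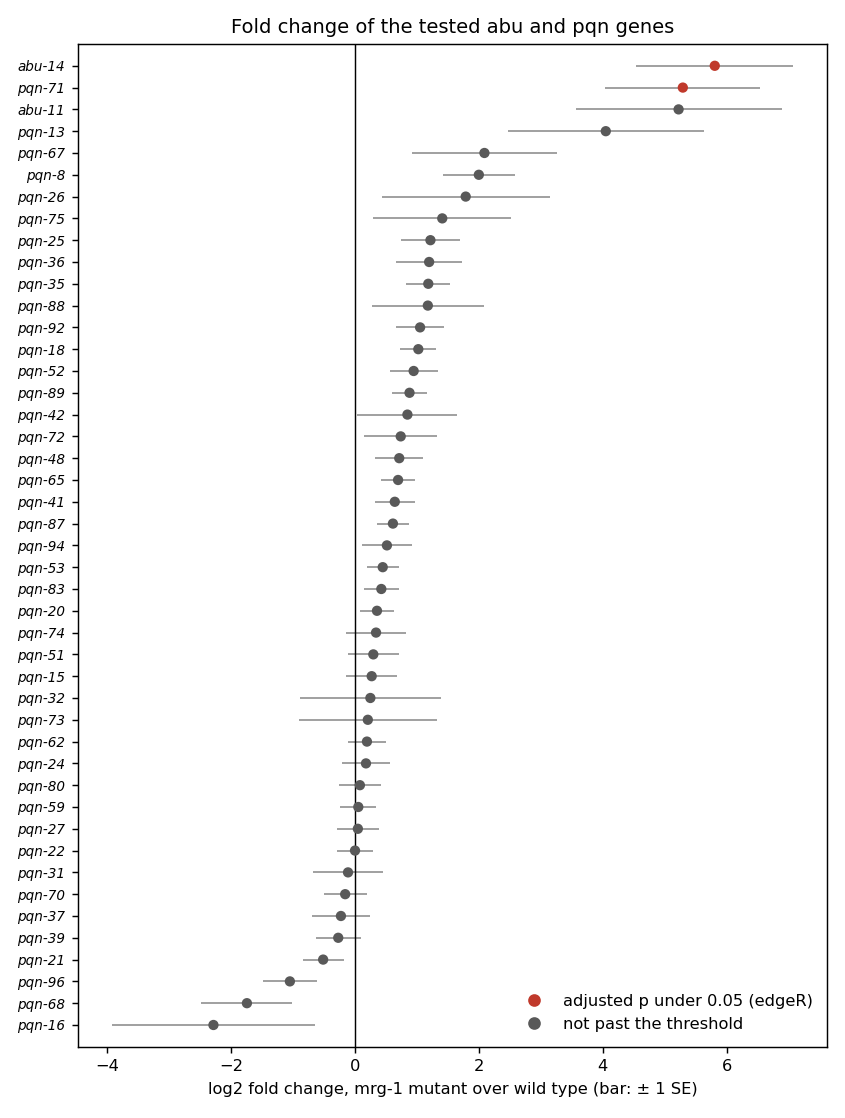
Log2 fold change, *mrg-1* mutant over wild type, of the 45 tested *abu* and *pqn* genes, with bars of 1 SE on each side. The called genes *abu-14* and *pqn-71* are in red at 5.81 and 5.29, and the other 43 in grey run from -2.28 to 5.23.

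The genes with 0 counts share features that the choice by name did not use. All 11 have a single annotated transcript, as have 19 of the 22 scarce genes and 14 of the 39 expressed ones. Their deposited lengths lie between 1008 and 1403 bases (median 1223). The scarce genes range from 729 to 2879 (median 1316.5) and the expressed genes from 385 to 6766 (median 1986). In median length and transcript number the genes with 0 counts are thus close to the scarce genes. The 11 genes lie on chromosomes IV (6 genes), V (3) and X (2). Of these, 10 lie within 40 kb of another *abu* or *pqn* gene with 0 counts. Genes of other classes between them were not looked at. In WBcel235 of the Ensembl annotation, *pqn-76*, *abu-5*, *pqn-78* and *pqn-79* lie within chromosome IV 15579086 to 15596645, all 4 with a deposited length of 1008 bases. *pqn-90* and *pqn-91* lie at IV 15289901 to 15293443, *abu-1* and *pqn-2* at V 10380340 to 10384063, and *pqn-57* and *abu-9* at X 8319594 to 8323343. The eleventh, *abu-6*, lies with *abu-15*, *abu-7* and *abu-8* at V 5158602 to 5194608, where the 4 genes had 139 counts in all, 129 of them in *abu-8* and *abu-6* none. How reads matching several genes were counted is not given in the sources used here. A 0 in these rows is therefore a count of the table and not a measure of silence.

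The pathways in which these proteins are known were read from lists of genes. Of 73 pharyngeal cuticle genes (*chs-2* and the *fipr*, *nspb* and *idp* classes), 22 were tested, 0 rose and 1 fell, with a median log2 fold change of 0.42. The gene that fell was *fipr-1*, at 7.06, 4 and 4.69 CPM in the mutant and 12.1, 44.7 and 82.1 CPM in the wild type (edgeR adjusted p = 0.0241). It was not called without wild-type library 2 or without any 1 of the mutant libraries (edgeR adjusted p = 0.0665 to 0.142). *chs-2*, the chitin synthase of the pharynx, had 2.26, 6.02 and 11 CPM in the mutant and 3.65, 0.110 and 0.949 CPM in the wild type (fitted log2 fold change 2.04, with SE 1.07 and edgeR adjusted p = 0.314). Summed, the 73 genes came to 246 to 261 CPM in the mutant and 168 to 327 CPM in the wild type, and 21 of them had 0 counts in every library. *idpc-1*, of a class of intrinsically disordered proteins, had 1.87, 0.206 and 8.90 CPM in the mutant and 0.0961, 0 and 0.0730 CPM in the wild type. Its mutant libraries ranked in the same order as those of *abu-14*, but its wild-type libraries did not. It was singled out after its values were seen.

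Of 22 genes that direct or carry out moulting, 20 were tested and 0 were called in edgeR, with 3 higher and 6 lower at an unadjusted p under 0.05 and a median log2 fold change of -0.32. Summed, the 22 genes came to 1224, 1097 and 1833 CPM in mutant libraries 1, 2 and 3 and to 1725, 1212 and 2013 CPM in the wild-type libraries. Members differed in which library was high: 7 of the 22 peaked in mutant library 3 and 7 in wild-type library 3. Over all genes with at least 10 counts these shares were 18.2% and 21.7%. *ptr-4*, of the patched-related family, had 1.6, 0.742 and 12.7 CPM in the mutant and 0.288, 0 and 0.219 CPM in the wild type (edgeR adjusted p = 0.0885). *mlt-11*, a protease inhibitor of the moult, had 10.1, 4.82 and 24.3 CPM in the mutant and 2.83, 3.30 and 0.365 CPM in the wild type (edgeR adjusted p = 0.118). *qua-1* failed the filter, with 0.312, 1.07 and 8.53 CPM in the mutant and 0.0961, 0 and 0.146 CPM in the wild type. These 3 were singled out after their values were seen. They were highest in mutant library 3, like 6 of the 7 *abu* genes with at least 10 counts. *noah-2* also peaked there, but its other mutant libraries lay below the wild type. It had 0.234, 0.660 and 12.3 CPM in the mutant and 4.52, 1.43 and 2.63 CPM in the wild type. The nuclear receptor *nhr-23*, which times the moult, was lower in all mutant libraries, at 19.3, 12 and 18.0 CPM against 33.0, 72.2 and 29.2 CPM in the wild type (edgeR adjusted p = 0.0899). The part that the larvae's progress towards the moult has in the *abu* levels was not tested.

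Of 20 genes of the endoplasmic reticulum unfolded protein response, all tested, 0 were called in edgeR, with 1 higher and 1 lower at an unadjusted p under 0.05. Their median log2 fold change was -0.14. The gene higher at that level was *hsp-4*, the BiP chaperone whose induction reports this response. It had 199, 294 and 196 CPM in the mutant and 128, 86.6 and 71.1 CPM in the wild type, with no overlap (log2 fold change 1.27, SE 0.31, edgeR adjusted p = 0.051). Its paralogue *hsp-3* had 539, 590 and 472 CPM in the mutant and 954, 589 and 427 CPM in the wild type. The gene lower at that level was *cnx-1*, a calnexin chaperone, with 131, 115 and 191 CPM in the mutant and 453, 258 and 302 CPM in the wild type, also with no overlap (fitted log2 fold change -1.21, with SE 0.31 and edgeR adjusted p = 0.0595). The part that endoplasmic reticulum stress has in the *abu* levels was not tested. Of 11 genes of cell corpse engulfment by CED-1, a receptor to which ABU proteins have been likened, 0 were called in edgeR. At an unadjusted p under 0.05, 2 were lower and 0 higher, and the median log2 fold change was 0.04. *ced-1* itself had 99.2, 106 and 123 CPM in the mutant and 84.2, 66.0 and 78.2 CPM in the wild type (edgeR adjusted p = 0.318).

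Summed markers of the pharynx and of other tissues were of similar size in the 3 mutant libraries, with the widest range in the intestine set. These sums are carried by abundant genes. Among the mutant libraries some scarce markers peaked in library 3. The epidermis marker *wrt-2* had 0.546, 1.94 and 11.1 CPM in the mutant and 2.88, 1.58 and 0.584 CPM in the wild type (edgeR adjusted p = 0.498). The gland markers *phat-1* and *phat-2* were scarcer: *phat-1* had 0, 0 and 9 counts in the mutant and 0, 29 and 0 in the wild type, and *phat-2* had 0, 5 and 22 in the mutant and 0 in the wild type. These 3 were singled out after their values were seen. The 8 pharyngeal muscle markers came to 3743, 3503 and 2914 CPM in mutant libraries 1, 2 and 3 and 3516, 1682 and 1254 CPM in the wild-type libraries, with 0 called in edgeR. Of 7 pharyngeal gland markers 5 were tested and 2 rose, *phat-4* and *phat-5* (edgeR adjusted p = 0.0295 and 0.00112). *phat-4* was not called without wild-type library 2 or without any 1 of the mutant libraries (edgeR adjusted p = 0.0735 to 0.137), while *phat-5* was called without each library. *phat-5* had 85.1, 86.5 and 69.0 CPM in the mutant and 2.21, 0.550 and 0.256 CPM in the wild type, at an even level across the mutant libraries. *hlh-6*, which specifies the gland, had 0.546, 0.495 and 0.188 CPM in the mutant and 0.24, 3.15 and 0.292 CPM in the wild type (edgeR adjusted p = 0.523). The 3 markers of marginal and arcade cells came to 144 to 154 CPM in the mutant and 44.9 to 136 CPM in the wild type, with 0 of 2 tested called in edgeR.

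Outside the pharynx, 6 body wall muscle markers came to 11550 to 14160 CPM in the mutant and 6272 to 9622 CPM in the wild type. The 6 intestine markers came to 2234 to 3631 CPM in the mutant and 963 to 3626 CPM in the wild type. The 8 neuron markers came to 2334 to 3092 CPM in the mutant and 1934 to 2356 CPM in the wild type. The 6 germline markers came to 40.04 to 49.9 CPM in the mutant and 37.1 to 75.0 CPM in the wild type. In these 4 sets 0 genes were called in edgeR. At an unadjusted p under 0.05, 3 body wall muscle, 1 intestine and 1 neuron marker were higher and 1 neuron marker was lower. The 6 epidermis markers came to 201 to 221 CPM in the mutant and 230 to 369 CPM in the wild type. Of the 5 tested 1 rose, the cuticle collagen *rol-6*, which had 69, 38 and 69 counts in the mutant and 0 in the wild type, at least 57.9-fold higher (edgeR adjusted p = 0.0284). It was not called without wild-type library 2 or without any 1 of the mutant libraries (edgeR adjusted p = 0.0729 to 0.146). The median of the 5 was -0.41 on the log2 scale, and at an unadjusted p under 0.05, 1 was higher and 1 lower. The lower one, *lin-26*, had 125, 118 and 95.9 CPM in the mutant and 149, 185 and 180 CPM in the wild type (log2 fold change -0.60, edgeR adjusted p = 0.239), and *elt-1* was likewise lower in every mutant library (log2 fold change -0.60, edgeR adjusted p = 0.355). The untested epidermis marker, *dpy-7*, averaged 0.174 ± 0.137 CPM in the mutant and 0.17 ± 0.112 CPM in the wild type (SD, n = 3 each).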

How the data were processed

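The deposited files hold raw counts per gene with gene lengths, and normalized log2 values: per the file's own numbers, the authors' log2 values are those of counts brought to a common library total, with a constant added. The submitters' processing notes name ce10. Which aligner, counter, annotation and strand setting was used, and how multiply matching reads were treated, is not stated there. All sample columns were mapped (0 unmapped).

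WormBase names gave the symbol of 70 of the 72 genes. The pseudogenes *abu-3* and *pqn-11* were named by equal position in RefSeq's and Ensembl's WBcel235 annotations. Positions are WBcel235 and were not converted. Of the 72 genes, 14 share their span with another counted gene, 13 of these on the opposite strand. Sequences were not used here, so a planned grouping by cysteine content was not made. Level classes took its place and were set after the values were seen.

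The counts were tested with edgeR 4.0.16 under R 4.3.3: TMM factors, its default expression filter, the quasi-likelihood fit with genotype alone, and Benjamini-Hochberg adjustment at 0.05. SE is the absolute log2 fold change divided by the square root of F. P-values measure the spread between these libraries, which may be partly technical. Level per length is CPM per kilobase of deposited length. Against a group with 0 counts, folds are bounds using 3 counts over that group. Ratios of scarce genes carry an exact (Clopper-Pearson) 95% interval, which like the floor covers only counting error. The script was tested on simulated counts. Alternatives used DESeq2 1.42.0, limma 3.58.1 and other filters, scalings and sets of libraries. Figures were drawn with matplotlib 3.10.9.

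Named by rule are *mrg-1*, called genes, the 8 highest and 8 lowest fold changes, the 8 highest levels per length, genes with 0 counts in 1 genotype only, called genes of each list (at most 4) and defining markers. Other genes were named after their values were seen. The genes and lists were chosen with earlier results of these data known.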

Additional observations from a re-analysis of the deposited data

How the results depend on the processing

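The count of *abu* and *pqn* genes called higher was 2 and became 4 with DESeq2 (*abu-14*, *pqn-8*, *pqn-18*, *pqn-35*), 4 with no expression filter (*abu-10*, *abu-11*, *abu-14*, *pqn-71*), 1 with at least 1 CPM required in 3 libraries (*pqn-71*, *abu-14* being untested there) and 0 with limma-voom. Leaving out 1 library gave 0 to 6, with 6 without wild-type library 1, 2 without mutant library 2 and 0 without any of the other 4. The share of all genes called higher also moved: it was 1.75% with all libraries, 3.92%, 0.506% and 1.96% without wild-type library 1, 2 or 3, and 0.249%, 0.456% and 0.286% without mutant library 1, 2 or 3. The count was 0 without wild-type libraries 2 and 3, the libraries with the most mitochondrial counts (1.19% of all genes), and 0 without mutant replicate 3 and with no filter (1.12%). Both of these last alternatives were chosen after seeing the data. The count called lower was 0 in each of these alternatives. The causes were not tested.

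Same-numbered libraries of the genotypes had correlations of -0.00482, 0.0433 and 0.093 in their deviations from the group means. Libraries of unlike number had -0.0813 to 0.0461. Correlations this small in so few libraries cannot tell whether libraries of the same number share an origin. With the replicate number as a block the count called higher was 1 (*pqn-71*), with 2.15% of all genes called higher, *abu-14* had an edgeR adjusted p of 0.0511, and the median over the 45 tested genes was 0.65 on the log2 scale.

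That median, 0.52 in the analysis given above, was 0.82 with library totals, 0.75 with no filter, 0.72 with limma-voom, 0.95 with the deposited log2 values, 0.74 without wild-type libraries 2 and 3, 0.71 without mutant replicate 3 and no filter, and 0.42 to 0.73 with 1 library left out. The median of all genes was 0.27 with library totals, 0.16 with no filter, 0.08 with limma-voom and 0.35 with the deposited log2 values. It was 0.16 without wild-type libraries 2 and 3, and 0.09 without mutant replicate 3 and no filter. Fold changes there are to be read against those shifts.

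Among *mrg-1* and the 22 genes recomputed one by one, log2 fold changes that changed sign belonged to 7 genes, none called in any of these settings. *pqn-16* was 0.63 with limma-voom, 0.32 with the block, 1.68 without wild-type libraries 2 and 3, and -2.87 to 2.71 with 1 library left out. *pqn-26* was -0.56 without mutant replicate 3 and no filter, and -0.57 to 3.31 with 1 library left out. *pqn-31* was 0.40 with library totals, 0.28 with limma-voom, 0.64 with the deposited log2 values, 0.31 with the block, 1.69 without wild-type libraries 2 and 3, and -0.54 to 1.07 with 1 library left out. *pqn-37* was 0.20 with library totals, 0.24 with the deposited log2 values, 0.63 without wild-type libraries 2 and 3, and -0.51 to 0.41 with 1 library left out. *pqn-39* was 0.079 with the deposited log2 values. *pqn-59* was -0.15 without wild-type libraries 2 and 3, -0.14 without mutant replicate 3 and no filter, and -0.14 to 0.28 with 1 library left out. *pqn-70* was 0.21 with library totals, 0.17 with the deposited log2 values, 0.18 without wild-type libraries 2 and 3, and -0.33 to 0.15 with 1 library left out. Over *mrg-1* and those 22 genes, 301 of 362 values kept direction and call. That count takes *pqn-71* and *pqn-16* under DESeq2 as kept, although DESeq2 gave them no adjusted p and so no call. *mrg-1* was also not called with library totals or the deposited log2 values (adjusted p = 0.105 and 0.0761).

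Membership by older gene names was planned but not run, because the reference tables hold 0 synonyms. Depth limits the 22 genes that had counts but averaged under 1 CPM in the wild type: with the expression filter 6 of them were tested, and with no filter all 22.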
